A study of Drosophila melanogaster with 6 samples.

Results

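The genes described here are 9 markers of Drosophila glia, chosen by their FlyBase symbols: repo, nrv2, moody, Gli, loco, wrapper, Eaat1, Gs2 and alrm. All 9 of them were found among the 17559 gene identifiers of the count table. RNA was measured in neuroepithelium of the outer proliferation centre, the epithelial sheet of the larval optic lobe that produces the neurons of the medulla, in Drosophila melanogaster. The study compares 3 dorsal with 3 ventral libraries of late second-instar larvae that are labelled female and were raised at 25 °C. GFP-labelled cells were drawn by hand with a glass micropipette and pooled from 3 to 4 brains per library, and polyadenylated RNA was sequenced. The sources used here do not name the driver of the GFP, and no library of purified glia was analysed here.

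Glia of the larval brain lie in layers. Perineurial and subperineurial glia cover the brain, and the subperineurial cells are joined by septate junctions into the blood-brain barrier. Cortex glia wrap neuroblasts and neuronal cell bodies, including those next to the optic lobe neuroepithelium, while astrocyte-like and ensheathing glia sit at the neuropil, where astrocyte-like glia take up transmitters. The homeodomain protein Repo marks the nuclei of nearly all of these cells apart from midline glia. Several genes used as glial markers also act elsewhere: Nrv2, a beta subunit of the sodium-potassium pump, and Gliotactin belong to the septate junctions of other epithelia, and Loco also acts in dividing neuroblasts.

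Total reads were between 21114019 and 27815885 per library. Levels of 10 genes listed for neuroepithelium were summed in each library, which describes the tissue but cannot show its identity. These summed to between 660 and 940 CPM (reads scaled to the same library total) in dorsal and between 741 and 908 CPM in ventral libraries, and of the 10 Rx alone had a library at 0. Neuroblast and neuron genes were read in both groups too, with ase at 325 ± 137 CPM in the dorsal libraries, against 370 ± 73.0 CPM in the ventral libraries and elav at 409 ± 152 CPM in the dorsal libraries, against 397 ± 164 CPM in the ventral libraries (SD, n = 3 each). In a principal component analysis, ventral replicate 1 stood apart on the leading component (32.4% of the variance) and ventral replicate 2 on the next (24.6%). All libraries are labelled female, but the dosage compensation RNA lncRNA:roX2, made mainly in males, was read in most of them. It had 16000, 7580 and 0 reads in dorsal replicates 1, 2 and 3, against 6888, 62 and 5680 in ventral replicates 1, 2 and 3. Its relation to the spread within groups was not tested. Nothing in the labels says that replicates came from separate days or crosses, so p-values measure only the spread between these pooled samples.

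The 9 markers did not behave as one group. nrv2 and Eaat1 were abundant and even in all 6 libraries, loco, Gli and moody were low and moderately variable, and repo, wrapper, Gs2 and alrm changed by more than 10-fold from library to library within the dorsal group, the ventral group or both. For these last 4 genes ventral replicate 1 had the highest level and dorsal replicate 2 the next highest. No marker separated the dorsal from the ventral libraries.

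**Figure D1:**
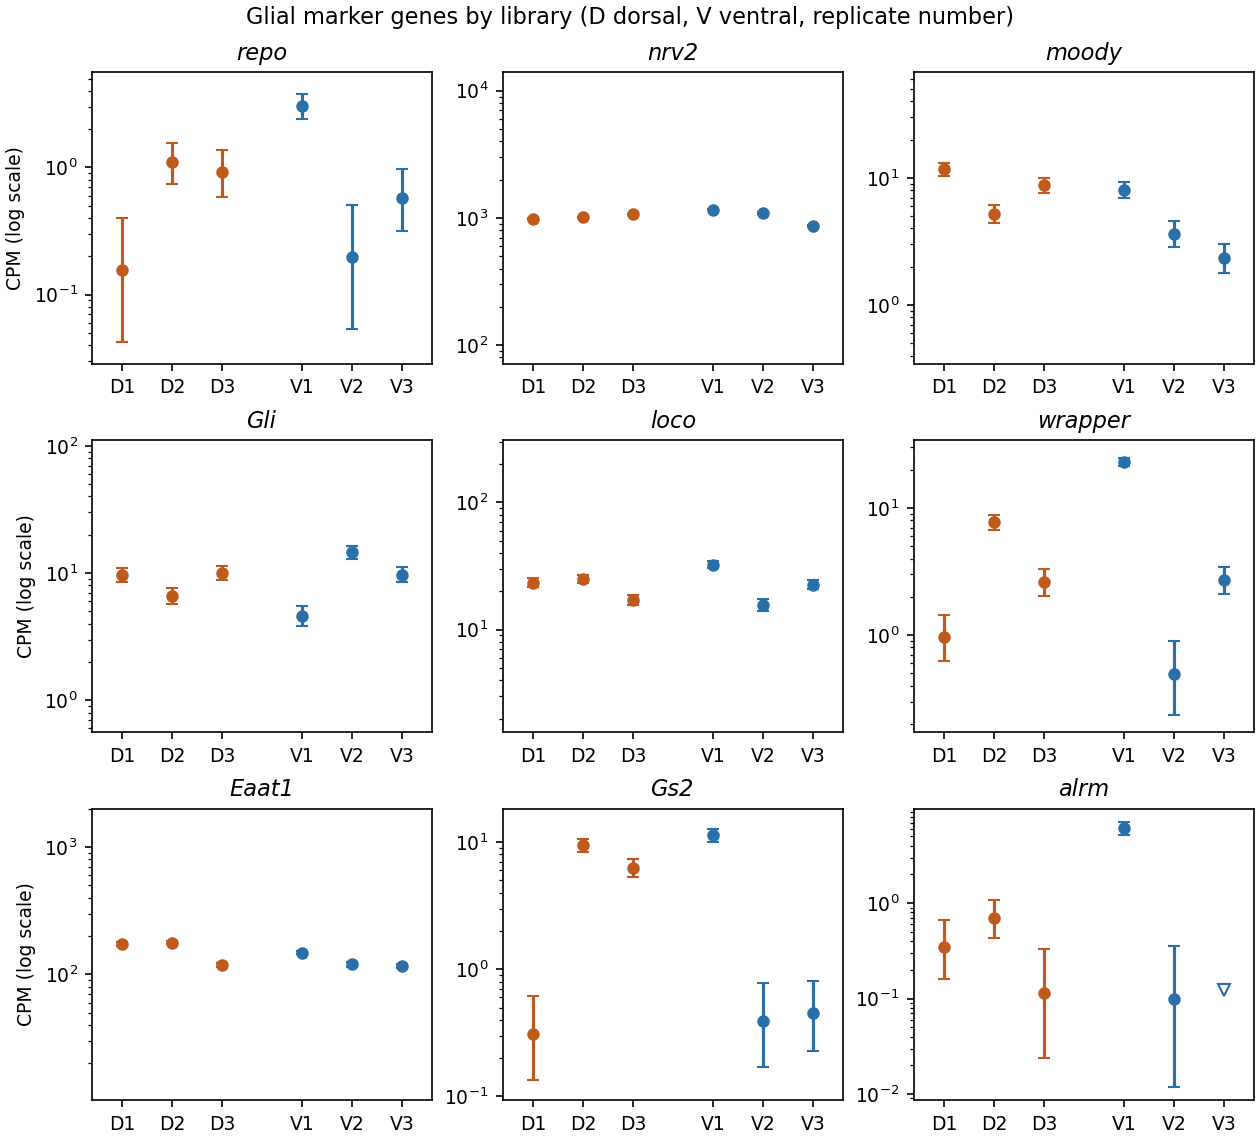
CPM of each of the 9 genes (log axis) in the 3 dorsal libraries (D1 to D3) and the 3 ventral libraries (V1 to V3), with exact 95% intervals of the counting error. The open triangle for alrm in V3 marks the level of 3 reads, taken as the limit for a count of 0. nrv2 and Eaat1 form flat rows, whereas repo, wrapper, Gs2 and alrm are highest in V1 and next highest in D2.

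The gene repo (FBgn0011701, chromosome 3R, 18236192 to 18239602, plus strand, BDGP6), which encodes the homeodomain factor of lateral glia, was barely read. It had 4, 31 and 24 reads in dorsal replicates 1, 2 and 3, against 80, 4 and 14 reads in ventral replicates 1, 2 and 3. In CPM these are 0.156, 1.10 and 0.917 for the dorsal replicates, against 3.03, 0.197 and 0.577 for the ventral replicates. Ventral replicate 1 was above all other libraries, with an exact 95% interval of 2.40 to 3.77 CPM that did not overlap that of dorsal replicate 2 (0.746 to 1.56 CPM). All intervals given here cover only the counting error, and reads that carry no molecular identifier are not independent molecules. Exons of repo share 183 bp with CG7156 on the opposite strand, and the sources used here do not say whether counting used strand.

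The gene nrv2 (FBgn0015777, chromosome 2L, 6789770 to 6798862, minus strand), a marker used for several glial types, was the most abundant member. Its levels were 986, 1014 and 1068 CPM in dorsal replicates 1, 2 and 3, against 1161, 1095 and 861 CPM in ventral replicates 1, 2 and 3. The highest library was 1.35 times the lowest. The reads of nrv2 made up between 81.3% and 86.6% of the summed reads of the 9 genes in dorsal libraries and between 83.1% and 87.6% in ventral libraries. Those of repo, wrapper, Gs2 and alrm together made up between 0.149% and 1.52% in dorsal and between 0.0943% and 3.11% in ventral libraries. A sum over the 9 genes is therefore almost entirely nrv2 and Eaat1.

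Of the genes of the blood-brain barrier, moody (FBgn0025631, chromosome X, 2044292 to 2050120, minus strand) encodes a G protein-coupled receptor of subperineurial glia. It had 300, 148 and 228 reads (11.7, 5.24 and 8.72 CPM) in dorsal replicates 1, 2 and 3, against 212, 74 and 57 reads (8.04, 3.64 and 2.35 CPM) in ventral replicates 1, 2 and 3. The highest library was dorsal replicate 1 and the lowest was ventral replicate 3, and the groups overlapped because ventral replicate 1 lay above dorsal replicate 2. Gliotactin (Gli, FBgn0001987, chromosome 2L, 15756002 to 15762758, minus strand), a cholinesterase-like protein of tricellular junctions, had 9.71, 6.59 and 9.98 CPM in dorsal replicates 1, 2 and 3, against 4.59, 14.6 and 9.73 CPM in ventral replicates 1, 2 and 3. Its order ran against that of repo at the top, with ventral replicate 1 the lowest of the 6 libraries for Gli and the highest for repo. The gene loco (FBgn0020278, chromosome 3R, 22619968 to 22639387, minus strand), which encodes a regulator of G protein signalling that acts downstream of Moody, had 23.4, 25.2 and 17.0 CPM in dorsal replicates 1, 2 and 3, against 32.4, 15.6 and 22.6 CPM in ventral replicates 1, 2 and 3. Its highest library was 2.08 times its lowest. Exons of loco share 1032 bp with asRNA:CR43474 on the opposite strand, which had between 0 and 2 reads per library.

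The cortex glia gene wrapper (FBgn0025878, chromosome 2R, 22379637 to 22382675, plus strand), which encodes an immunoglobulin-domain protein of the glial surface also found on midline glia, had levels of 0.975, 7.69 and 2.60 CPM in dorsal replicates 1, 2 and 3, against 23.0, 0.491 and 2.72 CPM in ventral replicates 1, 2 and 3. The ventral group held both the highest and the lowest library, 46.8-fold apart. In dorsal libraries the interval of replicate 2 (6.70 to 8.78 CPM) lay above those of replicate 1 (0.631 to 1.44 CPM) and replicate 3 (2.02 to 3.3 CPM).

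Of the genes of transmitter handling, Eaat1 (FBgn0026439, chromosome 2L, 9333567 to 9341925, plus strand) encodes the glutamate transporter of astrocyte-like and other glia. It had 173, 177 and 119 CPM in dorsal replicates 1, 2 and 3, against 148, 120 and 117 CPM in ventral replicates 1, 2 and 3. Its 6 libraries lay within a range of 1.52-fold. Gs2 (FBgn0001145, chromosome X, 11422832 to 11430197, plus strand) encodes a glutamine synthetase, the enzyme that turns the glutamate taken up by glia into glutamine. It had 8, 266 and 164 reads (0.312, 9.42 and 6.27 CPM) in dorsal replicates 1, 2 and 3, against 298, 8 and 11 reads (11.3, 0.393 and 0.453 CPM) in ventral replicates 1, 2 and 3. The libraries thus fell into a high and a low range, with dorsal replicates 2 and 3 and ventral replicate 1 in the high one. The gene alrm (FBgn0039332, chromosome 3R, 25381065 to 25382781, minus strand), which encodes a leucine-rich repeat protein of astrocyte-like glia, had 9, 20 and 3 reads in dorsal replicates 1, 2 and 3, against 161, 2 and 0 reads in ventral replicates 1, 2 and 3. Ventral replicate 1 stood at 6.10 CPM and the other 5 libraries stood at or below 0.708 CPM, while the count of 0 in ventral replicate 3 allows up to 0.124 CPM.

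Levels of different genes were compared per kilobase of exon. In mean CPM per kb over the 6 libraries, nrv2 stood at 289, Eaat1 at 45.4, wrapper at 3.16, loco at 2.96, Gs2 at 2.10, Gli at 2.06, moody at 1.68, alrm at 0.716 and repo at 0.333. Libraries of nrv2 ranged from 241 to 325 CPM per kb and those of Eaat1 from 37.3 to 56.5 CPM per kb, so both were apart from each other and from all lower members, of which the highest single value was 11.6 CPM per kb (wrapper in ventral replicate 1). Below Eaat1, every pair of neighbours in this order overlapped between libraries. On the same scale the neuroblast gene ase had a mean of 143, the neuron gene elav 37.6, and the neuroepithelial genes par-6 62.8 and crb 3.23 CPM per kb.

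The spread between libraries of 1 group was measured as the SD of log2 CPM within groups, with a prior count of 2. It was 2.55 for Gs2, 2.47 for alrm, 2.15 for wrapper and 1.54 for repo, against a median of 0.349 over all 8707 tested genes. Of the tested genes, 99.7% had a lower SD than Gs2, 99.6% a lower one than alrm, 98.8% a lower one than wrapper and 94.1% a lower one than repo. moody (0.75), Gli (0.64) and loco (0.43) lay nearer the median but above it, and Eaat1 (0.26) and nrv2 (0.17) lay below it. Low counts are noisier on the log scale, and edgeR's trend of the biological coefficient of variation (BCV) takes the level of a gene into account. The genewise BCV, which edgeR shrinks toward that trend, was 1.05 for Gs2 with a trend of 0.61 at its level, and 0.92 for wrapper with a trend of 0.54. For repo it was 0.92 with a trend of 0.82, so that gene, with 4 to 80 reads, lay nearer to what edgeR fitted for genes of its level. moody (0.52 with a trend of 0.53), Gli (0.43 and 0.44), loco (0.29 and 0.28), Eaat1 (0.20 and 0.21) and nrv2 (0.17 and 0.20) were at their trend or just below or above it.

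**Figure D2:**
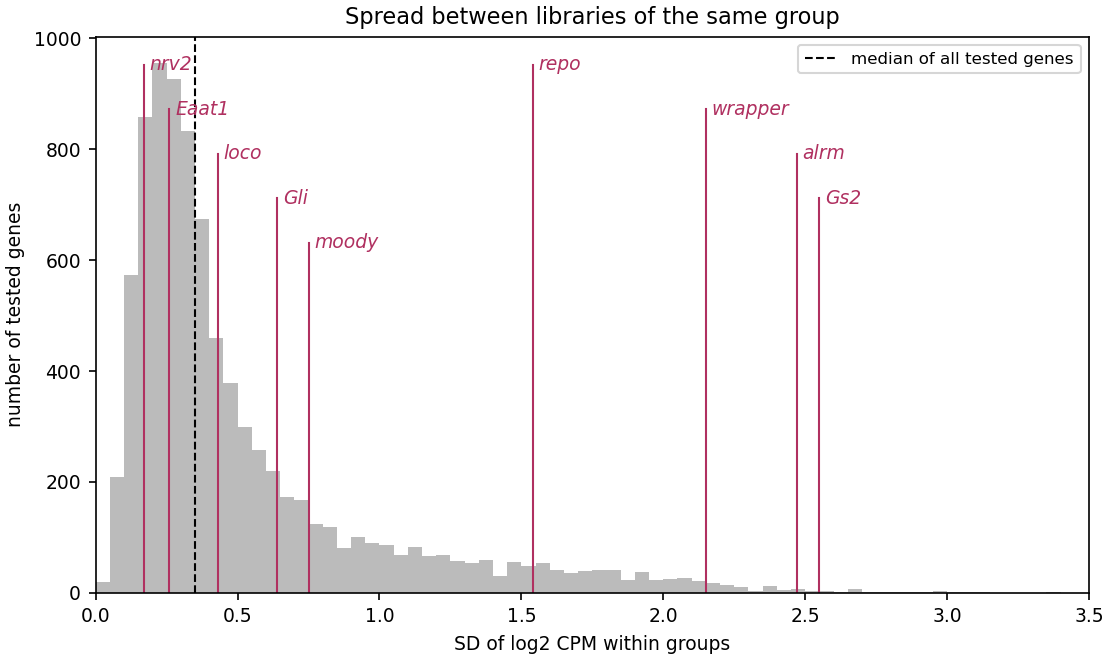
Number of tested genes (grey bars) by SD of log2 CPM between libraries of the same group, with the 9 glial genes as vertical lines whose heights carry no value and the median of all tested genes dashed. nrv2 and Eaat1 lie left of the median of 0.349, and repo, wrapper, alrm and Gs2 lie far to the right; alrm is marked although it was too low to be tested between groups.

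The highest library was at least 10 times the lowest for 4 of the 9 members (log2 CPM with a prior count of 2), and for 9.87% of tested genes. These were alrm (77.8-fold), wrapper (40.5-fold), Gs2 (29.1-fold) and repo (13.2-fold). Their summed level was 1.79, 18.9 and 9.90 CPM in dorsal replicates 1, 2 and 3, against 43.4, 1.18 and 3.75 CPM in ventral replicates 1, 2 and 3. Ventral replicate 1 was also the highest library for 24.5% of all tested genes, and for 32.0% of the 859 tested genes with at least this range. Over all tested genes, deviations from the group means correlated at 0.107 between ventral replicate 1 and dorsal replicate 2. That value is small but the highest of any dorsal and ventral pair. In bulk samples such as these, fewer glia and less RNA per glial cell cannot be told apart.

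Setting each gene against repo within a library gave ratios that varied less for some members than for others. wrapper had 6.25, 7.0 and 2.83 reads per repo read in dorsal replicates 1, 2 and 3, against 7.59, 2.5 and 4.71 in ventral replicates 1, 2 and 3. These ratios spanned less than wrapper itself, but they were not constant: the interval of dorsal replicate 3 (1.76 to 4.72) lay below those of dorsal replicate 2 (4.79 to 10.6) and ventral replicate 1 (6.0 to 9.7). Gs2 had 2.0, 8.58 and 6.83 reads per repo read in dorsal replicates 1, 2 and 3, against 3.73, 2.0 and 0.786 in ventral replicates 1, 2 and 3. Among these, the interval of ventral replicate 1 (2.90 to 4.83) lay below that of dorsal replicate 2 (5.90 to 12.9), although Gs2 itself was highest in ventral replicate 1. Both libraries were high in repo, yet alrm had 0.645 reads per repo read in dorsal replicate 2 (interval 0.349 to 1.17) and 2.01 in ventral replicate 1 (1.53 to 2.67). By contrast, nrv2 had 6325, 923 and 1164 reads per repo read in dorsal replicates 1, 2 and 3, against 383, 5571 and 1492 in ventral replicates 1, 2 and 3, and Eaat1 ranged from 130 to 1107 in dorsal and from 48.9 to 611 in ventral libraries. As nrv2 and Eaat1 were even over the libraries, their ratios mostly restate the levels of repo and are not a separate result. The ratios in dorsal replicate 1 and ventral replicate 2 rest on 4 repo reads each.

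**Figure D3:**
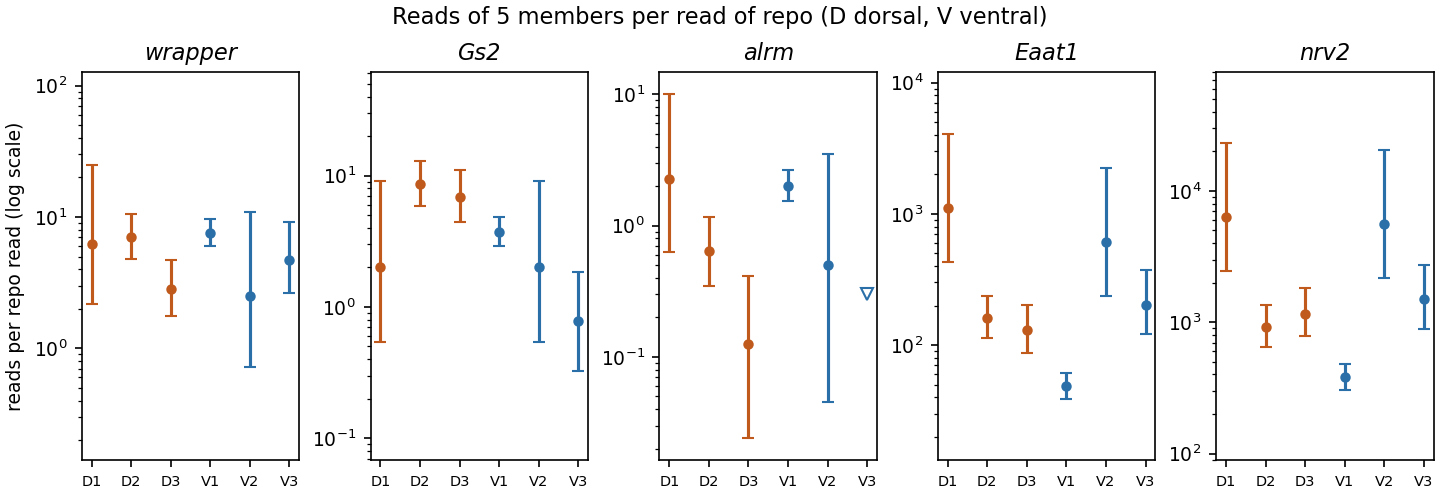
Reads of wrapper, Gs2, alrm, Eaat1 and nrv2 per read of repo (log axes of equal span) in dorsal (D1 to D3) and ventral (V1 to V3) libraries, with exact 95% counting intervals. The open triangle marks the upper limit of the exact interval for alrm in V3, where it had 0 reads. wrapper lies between 2.5 and 7.59, while nrv2, itself even over the libraries, runs from 383 in V1 to 6325 in D1.

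Profiles were also compared between genes by the root mean square (RMS) difference of their centred log2 CPM over the 6 libraries. This measure is smaller for more similar profiles, but it is also small for any genes that both vary little. Among members, Eaat1 and nrv2 (0.27), loco and Eaat1 (0.28) and loco and nrv2 (0.37) were nearest to each other, and repo was nearest to wrapper (0.65). Eaat1 was highest in dorsal replicate 2 and nrv2 in ventral replicate 1, so their small distance does not mean a shared order of libraries. Gs2 lay at 1.16 from repo and 1.18 from wrapper, and at 2.08 from nrv2. However, repo was nearer to loco (1.09) than to Gs2, and nearer to nrv2 (1.23) and Eaat1 (1.28) than to alrm (1.5). By this measure wrapper was nearer to Gs2 and alrm (1.35) than to loco (1.49). Across the 7820 tested genes with a mean of at least 1 CPM, the nearest to repo were the phosphate transporter gene NaPi-T (0.46), kar (0.49) and the microtubule-associated protein gene tau (0.51). The nearest to wrapper were the fatty acid elongase gene Elovl7 (0.51), GILT3 (0.62) and CG15210 (0.63), and the nearest to Gs2 were the homeobox gene oc (0.63), CG12911 (0.74) and CG10126 (0.78). As an example, CG15210 had 1.36, 10.9 and 4.01 CPM in dorsal replicates 1, 2 and 3, against 35.7, 2.55 and 3.79 CPM in ventral replicates 1, 2 and 3. All of these values share the same 6 libraries and their depth, and several of the genes had fewer than 10 reads in some libraries.

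The comparison of dorsal with ventral cells asks whether glial RNA differs between the compartments. None of the 8 tested members passed an adjusted p of 0.05 with edgeR's quasi-likelihood test, where 0.0919% of all 8707 tested genes did, none had an unadjusted p under 0.05, and DESeq2, which called 0.322% of genes, called none of the 8 either. alrm was not tested, since too few of its libraries reached the minimum count. For none of the 9 members did the dorsal and the ventral libraries separate without overlap, which 7.26% of tested genes did.

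Fold changes are given as log2 of dorsal over ventral, with their SE. That of moody was 0.87 ± 0.57, with 8.55 ± 3.23 CPM in the dorsal libraries, against 4.67 ± 2.98 CPM in the ventral libraries (SD, n = 3 each; adjusted p = 1.000, edgeR). Eaat1 had 0.28 ± 0.20, with 156 ± 32.3 CPM in the dorsal libraries, against 128 ± 17.2 CPM in the ventral libraries (adjusted p = 1.000, edgeR). The value for nrv2 was -0.02 ± 0.15, for Gli -0.14 ± 0.47 and for loco -0.11 ± 0.31. repo had -0.81 ± 1.14, wrapper -1.22 ± 1.14 and Gs2 0.39 ± 1.31, errors that span more than a doubling either way. For wrapper this is 3.75 ± 3.5 CPM in the dorsal libraries, against 8.74 ± 12.4 CPM in the ventral libraries (SD, n = 3 each), so the spread exceeds the difference.

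Leaving out ventral replicate 1, and no other single library, turned the direction of repo and wrapper. Without it the log2 fold change was 0.89 for repo and 1.22 for wrapper, both toward dorsal, and 3.64 for Gs2. Gs2 took the ventral direction without dorsal replicate 2 (-0.30), ventral replicate 2 (-0.15) or ventral replicate 3 (-0.15). None of these passed the threshold. Without ventral replicate 1, Gs2 and moody (log2 fold change 1.51) had an unadjusted p under 0.05, which became an adjusted p of 0.893 with edgeR.

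**Figure D4:**
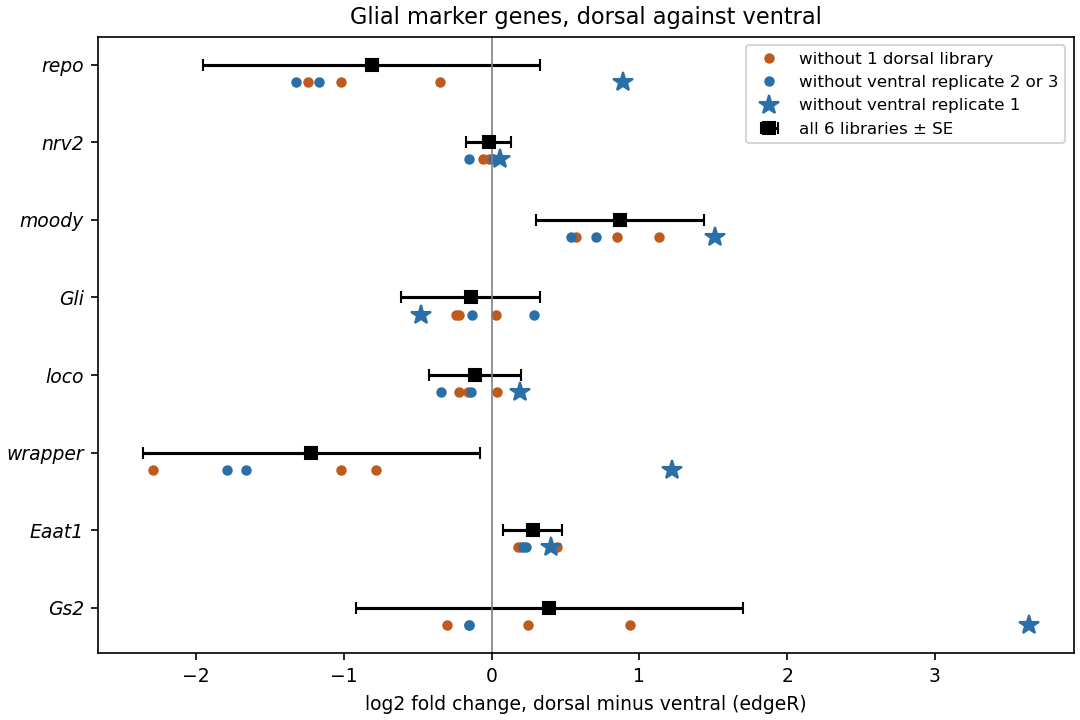
Log2 fold change, dorsal minus ventral, of the 8 tested members with all 6 libraries (black squares, bars are SE) and with each library left out in turn (small points, or a star where ventral replicate 1 is left out). The star lies on the other side of 0 from the square for repo and wrapper and at 3.64 for Gs2; for nrv2 and Eaat1 all points lie close together.

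A further 49 glial genes in 8 lists were read beside the members. Of 45 tested, edgeR called 0 in either direction, DESeq2 called 0, and 18 had higher values in dorsal and 27 in ventral libraries. Their median log2 fold change was -0.08, against 0.00 over all tested genes. The single unadjusted p under 0.05 with edgeR was that of Galphao, a G protein subunit that acts with Moody, at 103 ± 1.27 CPM in the dorsal libraries, against 144 ± 4.27 CPM in the ventral libraries (SD, n = 3 each; log2 fold change -0.49 ± 0.15, adjusted p = 1.000, edgeR). Of the 45, 3 genes (Galphao, gcm2 and nrv1) had groups that did not overlap, a share near the 7.26% of all tested genes.

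Of the 6 other cortex glia genes, zyd and Cyp4g15 had the same leading libraries as wrapper, and Ilp6, ogre and Inx2 did not. The calcium exchanger gene zyd had 4.09, 8.04 and 0.650 CPM in dorsal replicates 1, 2 and 3, against 39.5, 3.24 and 0.701 CPM in ventral replicates 1, 2 and 3. The cytochrome P450 gene Cyp4g15 had 2.96, 6.66 and 1.49 CPM in the dorsal libraries in the same order, against 16.2, 2.51 and 3.34 CPM in the ventral libraries. Both were highest in ventral replicate 1 and next highest in dorsal replicate 2. Reads of ana, a glial glycoprotein gene that restrains neuroblast division, were 2, 50 and 2 in dorsal replicates 1, 2 and 3, against 29, 0 and 3 in ventral replicates 1, 2 and 3, so the same libraries led in the other order. The insulin-like peptide gene Ilp6 had 0.975, 1.03 and 0.535 CPM in dorsal replicates 1, 2 and 3, against 0.720, 0.688 and 0.907 CPM in ventral replicates 1, 2 and 3, and was not raised in ventral replicate 1. The gap junction genes ogre and Inx2, which epithelia also use, were high in every library and highest in ventral replicate 2. ogre stood at 808 CPM in ventral replicate 1, its second lowest library, and Inx2 was lowest in dorsal replicate 2, at 377 CPM. ogre had 871 ± 143 CPM in the dorsal libraries, against 1072 ± 256 CPM in the ventral libraries, and Inx2 had 456 ± 68.0 CPM in dorsal against 483 ± 55.9 CPM in ventral libraries (SD, n = 3 each).

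**Figure D5:**
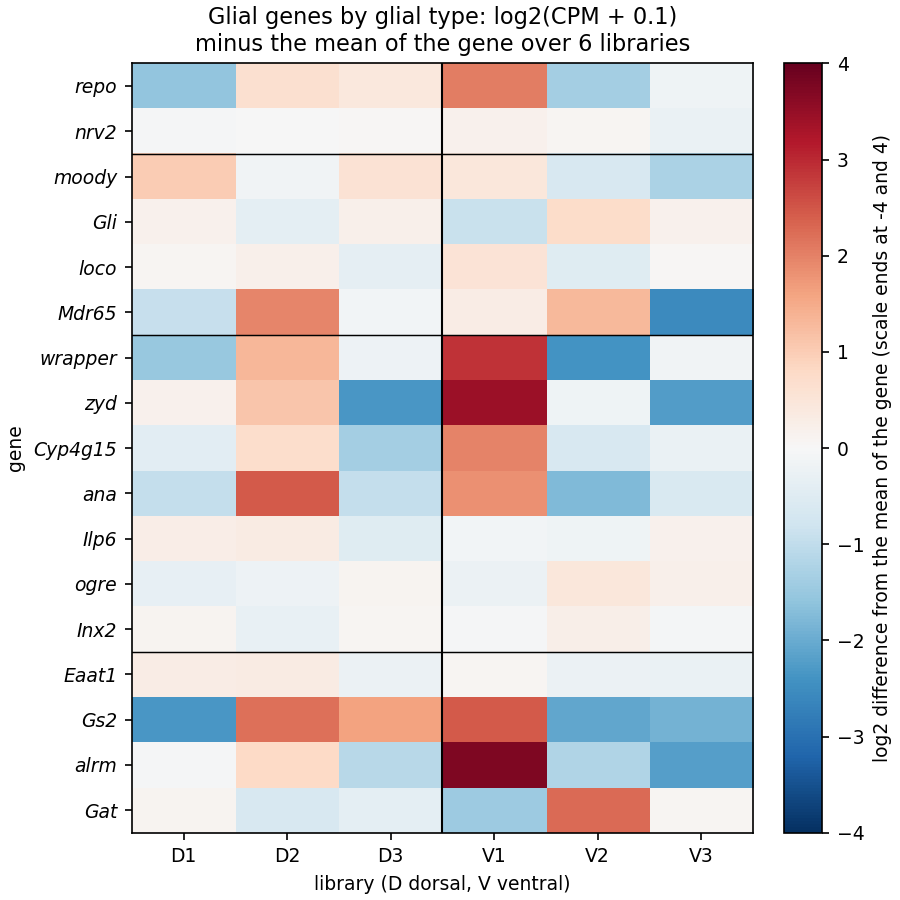
Each row is 1 of 17 glial genes, with the full cortex glia list and others chosen after their values were seen, and each column a library (dorsal D1 to D3, then ventral V1 to V3); colour gives log2(CPM + 0.1) minus the mean of the gene over the 6 libraries, with red above and blue below it. Black lines separate, from the top, broad glial genes, blood-brain barrier genes, cortex glia genes and genes of astrocyte-like glia; among the cortex glia rows wrapper, zyd, Cyp4g15 and ana are red in V1 and D2 and the rows of Ilp6, ogre and Inx2 are pale, and Gat is blue in V1 and red in V2.

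Genes of astrocyte-like glia and transmitter clearance did not share 1 profile. Of the 8 listed beside the members, 4 were highest in ventral replicate 1, as alrm was. These were Gs1 (8.45 CPM there), Gdh (320 CPM), htl and stumps (59 reads). The GABA transporter gene Gat had 5.85, 3.44 and 4.09 CPM in dorsal replicates 1, 2 and 3, against 1.90, 26.1 and 5.69 CPM in ventral replicates 1, 2 and 3. It was lowest in ventral replicate 1, where alrm was highest, and highest in ventral replicate 2, where alrm had 2 reads. Eaat2 had at most 11 reads in dorsal and 5 in ventral libraries, and e, which encodes a synthase that conjugates amines in glia, at most 8 reads in dorsal and 5 in ventral libraries. The FGF receptor gene htl had 3, 2 and 9 reads in dorsal replicates 1, 2 and 3, against 38, 4 and 13 in ventral replicates 1, 2 and 3. Gdh, the glutamate dehydrogenase gene, and the transporter gene gb were broadly read. Gdh had 230 ± 29.1 CPM in the dorsal libraries, against 237 ± 83.5 CPM in the ventral libraries, and gb had 45.6 ± 7.46 CPM in dorsal against 61.0 ± 9.91 CPM in ventral libraries (SD, n = 3 each).

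At the blood-brain barrier, the transporter gene Mdr65 had 2.42, 18.2 and 4.32 CPM in dorsal replicates 1, 2 and 3, against 5.76, 11.5 and 0.701 CPM in ventral replicates 1, 2 and 3. Its highest library was dorsal replicate 2, whereas that of moody was dorsal replicate 1, and ventral replicate 3 was lowest for both. Septate junction genes, which epithelia also use, were read in every library, with Nrg at 162 ± 18.9 CPM in the dorsal libraries, against 139 ± 58.7 CPM in the ventral libraries and sinu at 79.8 ± 19.2 CPM in the dorsal libraries, against 57.7 ± 5.6 CPM in the ventral libraries (SD, n = 3 each). Of the 11 genes of this list 9 had higher values in dorsal and 2 in ventral libraries, and none passed. Over all tested genes these counts were 4376 and 4331. Directions differed between lists: 3 of 4 engulfment genes were higher in dorsal libraries. All 4 glial fate regulators and all 5 tested genes of the astrocyte list were higher in ventral libraries. Of the genes of the sheath around the brain, the sugar transporter gene Tret1-1 had 19.1 ± 7.74 CPM in the dorsal libraries, against 14.7 ± 2.73 CPM in the ventral libraries, and SPARC, a matrix protein gene, had 15.6 ± 8.55 CPM in the dorsal libraries, against 9.08 ± 2.44 CPM in the ventral libraries. Both were highest in dorsal replicate 2.

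Among regulators of glial fate, gcm, the gene that starts glial development and also acts in lamina neurons, had 12, 228 and 1 reads in dorsal replicates 1, 2 and 3, against 282, 106 and 94 reads in ventral replicates 1, 2 and 3. Its paralog gcm2 had 50, 35 and 1 reads in these dorsal libraries, against 87, 42 and 54 reads in these ventral libraries. In CPM the groups of gcm2 do not overlap, with at most 1.95 CPM in the dorsal libraries, against at least 2.06 CPM in the ventral libraries, and its log2 fold change was -1.23 ± 1.05 (adjusted p = 1.000, edgeR). Dorsal replicate 3, with 1 read of each, nevertheless had 24 reads of repo and 164 of Gs2. pnt, an effector of receptor tyrosine kinases, was abundant in both groups at 379 ± 103 CPM in the dorsal libraries, against 452 ± 99.4 CPM in the ventral libraries, and the repressor gene ttk had 6.23 ± 4.08 CPM in dorsal against 12.4 ± 6.65 CPM in ventral libraries (SD, n = 3 each). Of the engulfment genes, drpr, which encodes the receptor by which glia take up debris, had 57.0 ± 0.97 CPM in the dorsal libraries, against 52.2 ± 6.50 CPM in the ventral libraries. Other named genes of engulfment (crq at a mean of 46.1 CPM and ced-6 at 18.7 CPM) and of glial metabolism (fabp at 891, Bsg at 393, Treh at 38.2 and NLaz at 4.84 CPM, means over 6 libraries) did not pass either.

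Markers of other cell types had no common order over the libraries, but some shared the leading libraries of the variable glial genes. The 8 neuron genes, none of them at 0 in any library, summed to 643, 643 and 386 CPM in dorsal replicates 1, 2 and 3, against 462, 746 and 458 CPM in ventral replicates 1, 2 and 3. Of these 8 genes 2 were highest in ventral replicate 1. The synaptic gene nSyb had 1.05, 1.06 and 1.64 CPM in dorsal replicates 1, 2 and 3, against 39.0, 6.63 and 0.618 CPM in ventral replicates 1, 2 and 3, whereas elav had 274 CPM in ventral replicate 1, its second lowest library, and 583 CPM in ventral replicate 2, its highest. ChAT was also highest in ventral replicate 2, at 7.57 CPM. VGlut was the only neuron gene highest in ventral replicate 1 (28.6 CPM) and next highest in dorsal replicate 2 (6.09 CPM). The 6 neuroblast genes, none of them at 0 in any library, summed to 929, 1098 and 782 CPM in dorsal replicates 1, 2 and 3, against 1533, 1102 and 924 CPM in ventral replicates 1, 2 and 3, and 3 of the 6 were highest in ventral replicate 1. Among those, wor had 194, 292 and 109 CPM in the dorsal libraries in the same order, against 519, 137 and 171 CPM in the ventral libraries, and dpn had 77.3 CPM in ventral replicate 1 against 21.1 to 50.4 CPM in the other 5. Like wor, mira was highest in ventral replicate 1 (110 CPM) and next highest in dorsal replicate 2 (88.8 CPM). The same libraries led for ase (444 and 476 CPM), but not for dpn, insc or l(1)sc. The 10 neuroepithelial genes summed to 940, 660 and 854 CPM in dorsal replicates 1, 2 and 3, against 742, 908 and 741 CPM in ventral replicates 1, 2 and 3. Of these, Rx had 224 reads in ventral replicate 1 and 83 in dorsal replicate 2, the leading libraries of the variable glial genes, and between 0 and 22 in the other 4. Vsx1 had 13.5, 6.45 and 4.74 CPM in dorsal replicates 1, 2 and 3, against 3.94, 17.3 and 6.64 CPM in ventral replicates 1, 2 and 3. Ventral replicate 1 was thus its lowest library, as it was for shg (91.2 CPM), crb (16.8 CPM) and baz (46.2 CPM). In contrast, 3 of the 10 were highest in ventral replicate 1, namely Rx, sdt (54.5 CPM) and aPKC (163 CPM). The 5 hemocyte genes were near 0, summing to between 0.708 and 1.41 CPM in dorsal and between 1.13 and 1.40 CPM in ventral libraries, and He had 0 reads in 3 of the 6 libraries. The 4 muscle genes summed to between 4.42 and 13.0 CPM over the 6 libraries, and up had 0 reads in ventral replicates 1 and 3. The part of neurons or neuroblasts in the glial values was not tested.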

How the data were processed

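Per the labels' protocols, cells were collected over 1 h, cDNA was made by SMART-Seq v4 and libraries by Nextera XT. The deposited counts are raw whole reads per gene. The authors' second table, a signal scale, holds those counts after division by a size factor for each library, and 0 of its values differed from this by over 0.01 reads. Per the submitters' processing notes, the tools included Trimmomatic, featureCounts and DESeq2, and the builds are dm6 and BDGP6. For the aligner, the tool versions and strandedness, nothing is given in the sources used here. Symbols came from a reference list of gene names (17253 of 17559 identifiers had a symbol), and mega and Ced-6 were found by synonym as pck and ced-6. Exon lengths and gene positions came from the BDGP6 annotation. The members and all lists were chosen with earlier results of these data known.

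The test was edgeR 4.0.16 under R 4.3.3 (filterByExpr with a minimum count of 10, TMM factors, robust quasi-likelihood test with no term but group), adjusted by Benjamini-Hochberg over 8707 genes. The SE was taken as the size of the log2 fold change divided by the root of F. Exact intervals (Clopper-Pearson, 95%) used scipy 1.17.1. For levels a count of 0 was taken to allow 3 reads, and for ratios to repo the exact upper limit was used. The fit was checked on simulated counts whose spread followed edgeR's trend. That check does not cover spread above the trend, as seen for Gs2 and wrapper. Alternatives were RLE factors, library size alone, DESeq2 1.42.0, limma 3.58.1 (limma-trend on log2 of the deposited normalized counts plus 1), other filters and prior counts, each library left out, and a block for the replicate number.

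Named genes were the 9 members, per glia list the 2 genes with the highest mean CPM and the 2 with the smallest p, per list of another cell type the 2 with the highest mean and the 2 with the widest range, and the 3 nearest profiles of each tested member with a range of at least 10-fold. Some of these are given only within their list's sum or count. Any other gene (such as Mdr65, Cyp4g15, ana, gcm and htl) was named after its values were seen.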

Additional observations from a re-analysis of the deposited data

How the results depend on the processing

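The number of members called stayed at 0 in each alternative fit with more than 1 library per group, as did that of the other glia genes. Few genes of any kind were called, 0.0919% of all tested genes with edgeR in the main fit and 0.322% with DESeq2. A count of 0 among so few genes is near that share and is not a result about glia. With 3 libraries per group and SEs above 1 for repo, wrapper and Gs2, sizeable differences in those genes could be missed. Directions of uncalled fold changes were less stable: over 14 alternative fits, 15 of 112 reversed. Without 1 library at a time the log2 fold change was -1.32 to 0.89 for repo, -2.29 to 1.22 for wrapper, -0.30 to 3.64 for Gs2, -0.48 to 0.29 for Gli, -0.34 to 0.19 for loco and -0.15 to 0.06 for nrv2, while moody (0.54 to 1.51) and Eaat1 (0.18 to 0.44) kept the dorsal direction. With ventral replicates 1 and 2 left out together, chosen after seeing the data and leaving 1 ventral library whose spread is taken to be that of the dorsal group, the values were 0.33 for repo, 0.47 for wrapper and 0.25 for nrv2; with library size alone nrv2 had 0.01. Limma-trend on the deposited normalized counts kept the directions but gave -0.37 for repo, -0.25 for wrapper and 1.02 for Gs2, against -0.81, -1.22 and 0.39 with edgeR; the cause was not tested. The number of members with a within-group SD above the median of all genes was 7 of 9, and 6 of 9 with no filter on low counts. The number with a 10-fold range was 4 with either scaling.

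Libraries with the same replicate number showed little shared deviation (correlations were 0.0029, -0.0376 and 0.0587 for numbers 1, 2 and 3). Only ventral replicate 3 correlated best with the library of its own number in the other group. With the replicate number as a block, 0 members were called, and the log2 fold change was -0.06 for repo, -0.18 for wrapper and 2.39 for Gs2.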
